A study of Mus musculus with 6 samples.

Results

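The members described here are 46 genes of DNA replication and of the passage from G1 into S phase, taken by gene symbol from a list of known functions. The list's rule uses no measured value, but it was drawn up with earlier results of these data known. All 46 were found among the 23284 symbols listed in the hearts of mouse embryos, and all passed the filter for testing, a mean of at least 1 FPKM (reads per kilobase of transcript, scaled to the size of the library) over the libraries. Poly(A) RNA of whole hearts of C57BL/6 embryos was sequenced at E13.5, a stage of embryonic heart growth, in 6 libraries, with 5 hearts pooled in each. The 3 TFAM KO libraries came from hearts with both Tfam alleles floxed and the 3 Control libraries from hearts with 1 floxed allele. Hearts of both groups carried the Nkx2.5 IRES-Cre allele in 1 copy, so Cre recombinase expressed from the Nkx2-5 locus was shared by all libraries. This Cre is active in the cardiac lineage, and cells outside that lineage keep their Tfam alleles. Tfam encodes a factor that packages mitochondrial DNA and on which its transcription and copying depend. The comparison sets hearts with both alleles floxed against hearts with 1 floxed allele under the same Cre. It does not compare them with hearts that have no floxed allele.

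Before S phase, the origin recognition complex, Cdc6 and Cdt1 load the Mcm2 to Mcm7 helicase on DNA, a step called licensing that Gmnn (geminin) blocks by binding Cdt1. The kinase pair of cyclin E and Cdk2, together with Cdc7 and its activator Dbf4, then turns the loaded helicase into the active form with Cdc45 and the GINS proteins, and polymerases alpha, delta and epsilon copy the strands. Transcription factors of the E2F family switch on many of these genes in late G1, and cardiomyocytes of the embryonic heart still divide.

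The libraries did not share a common scale. The totals recovered from the values ran from 12370092 to 18078620 reads, the precursor of ribosomal RNA took between 14.95% and 32.5% of them, and size factors ran from 0.812 to 1.33. The median of all tested genes was 0.28 higher in TFAM KO on the log2 scale as deposited and 0.00 with size factors. Size factors place this median near 0 by construction, so the 0.00 does not show which scale is right. Levels and differences below are given with size factors unless the deposited scale is named. Tfam was at 3.41, 5.17 and 4.69 FPKM in TFAM KO replicates 1, 2 and 3 and at 5.71, 6.43 and 6.60 FPKM in the controls. Its difference did not pass (log2 fold change -0.43, limma adjusted p = 0.140, and -0.15 as deposited), though all 3 TFAM KO libraries lay below the controls with size factors. Which part of Tfam is floxed was not given in the sources used here, and the controls also carried 1 floxed allele with Cre. The level of Tfam therefore checks the labels only in part. Heart markers were high in all libraries, with the summed level of 8 cardiomyocyte markers between 6353 and 10553 FPKM in TFAM KO and between 9084 and 11518 FPKM in Control. Of these 8, Ttn (log2 fold change -0.72, adjusted p = 0.0362) and Nkx2-5 (-0.93, adjusted p = 0.0388) were lower and 0 higher, and neither passed as deposited. With size factors 0 of the tested endothelial, epicardial, mesenchyme, erythroid and macrophage markers passed, and as deposited 1 endothelial, 2 mesenchyme and 1 macrophage marker were higher. The summed erythroid markers, from blood cells in the hearts, ran from 3353 to 10206 FPKM in TFAM KO and from 6271 to 12991 FPKM in Control, and Hba-a1 was listed at 0 throughout. The part of cell composition in the results below was not tested, and in whole hearts fewer cells of a type and less RNA per cell cannot be told apart.

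Among the 46 members, 1 passed the test and 45 did not. Cdt1, the licensing factor that brings the helicase to origins, fell in TFAM KO hearts to 61.8% of its level in Control. Of all 10807 tested genes, 4.59% passed with size factors, 1.99% higher and 2.6% lower, against 0 higher and 1 lower of the members. As deposited, 7.37% of all genes passed and 0 members did. Of all genes as deposited 6.21% passed as higher and 1.16% as lower, and at an unadjusted p under 0.05 there 6 members were higher and 0 lower (23.3% and 2.53% of all genes). The same unadjusted level with size factors held 2 members on the higher side and 5 on the lower, against 8.49% and 11.0% of all genes. Limma-voom on the recovered reads called Cdt1 and no other member, with 6.82% of all genes past the threshold, 2.55% higher and 4.27% lower. Its unadjusted p was under 0.05 for 0 members on the higher side and 6 on the lower (8.68% and 12.0% of all genes).

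The members' median log2 fold change was -0.11, and 34 of the 46 (73.9%) lay below 0, against 49.6% of all tested genes. In the related lists described below, 85% of mitosis genes lay below 0. So did 68% of other genes of RB, E2F and G1/S control and 64.7% of other replication genes. Direction depended on the scale: as deposited 7 members lay below 0 and their median was 0.20, under the 0.28 of all genes. The members' median lay 0.11 below that of all genes on the first scale and 0.08 below it on the second. Without TFAM KO replicate 2 the members' median was -0.03, the nearest to 0 on leaving out any of the 6 libraries. The median deviation of the members from their own means was -0.14 in that library, -0.03 and 0.02 in TFAM KO replicates 1 and 3, and 0.07, 0.06 and 0.04 in Control replicates 1, 2 and 3.

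**Figure D1:**
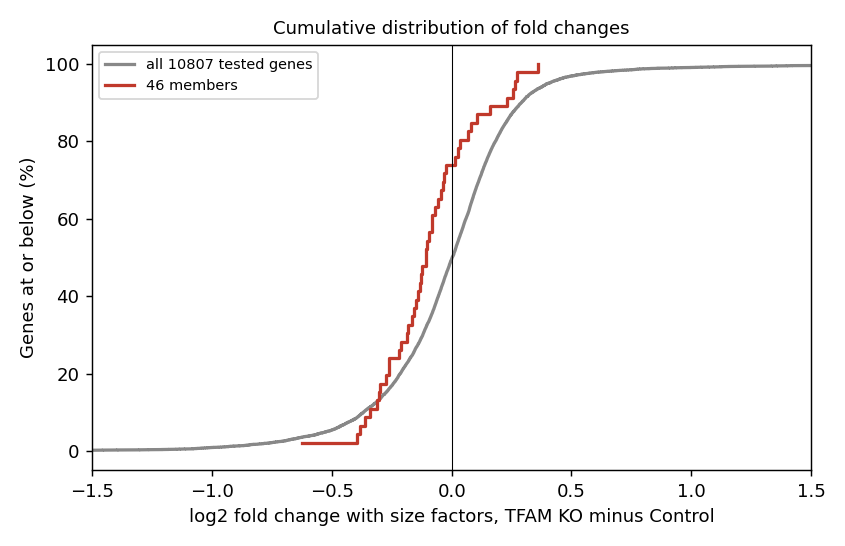
Cumulative share of genes (vertical axis, percent) by log2 fold change of TFAM KO minus Control with size factors (horizontal axis), for all tested genes in grey and the 46 members in red. The members span -0.63 to 0.36 and their curve lies to the left of that of all genes around 0 and to its right at the low end.

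The 95% intervals of the size-factor fit describe the uncertainty of each gene on the log2(FPKM + 1) scale. They are not adjusted for the number of genes and hold for that scale only, so they set no firm bound on a missed change. Other fits reached further, with Rfc4 at 0.66 (SE 0.23) as deposited and Pold1 at -0.52 (SE 0.23) with limma-voom. For all 46 members the interval lay within 1 log2 unit of 0, which was so for 93.5% of tested genes, and for 27 of the 46 it lay within 0.5 (54.0% of tested genes). The widest reach among members that did not pass was -0.84 for Pold1 on the low side and 0.75 for Rfc4 on the high side. The added 1 in log2(FPKM + 1) makes changes look smaller, most of all for members at low levels such as E2f2. Exons of 15 members overlap those of another gene in GENCODE vM21, and 8 of these overlap a gene listed in the files. Counting error is part of the width, since the members held between 60 and 1970 reads in a library and 12 of them fell under 100 reads in at least 1 library.

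**Figure D2:**
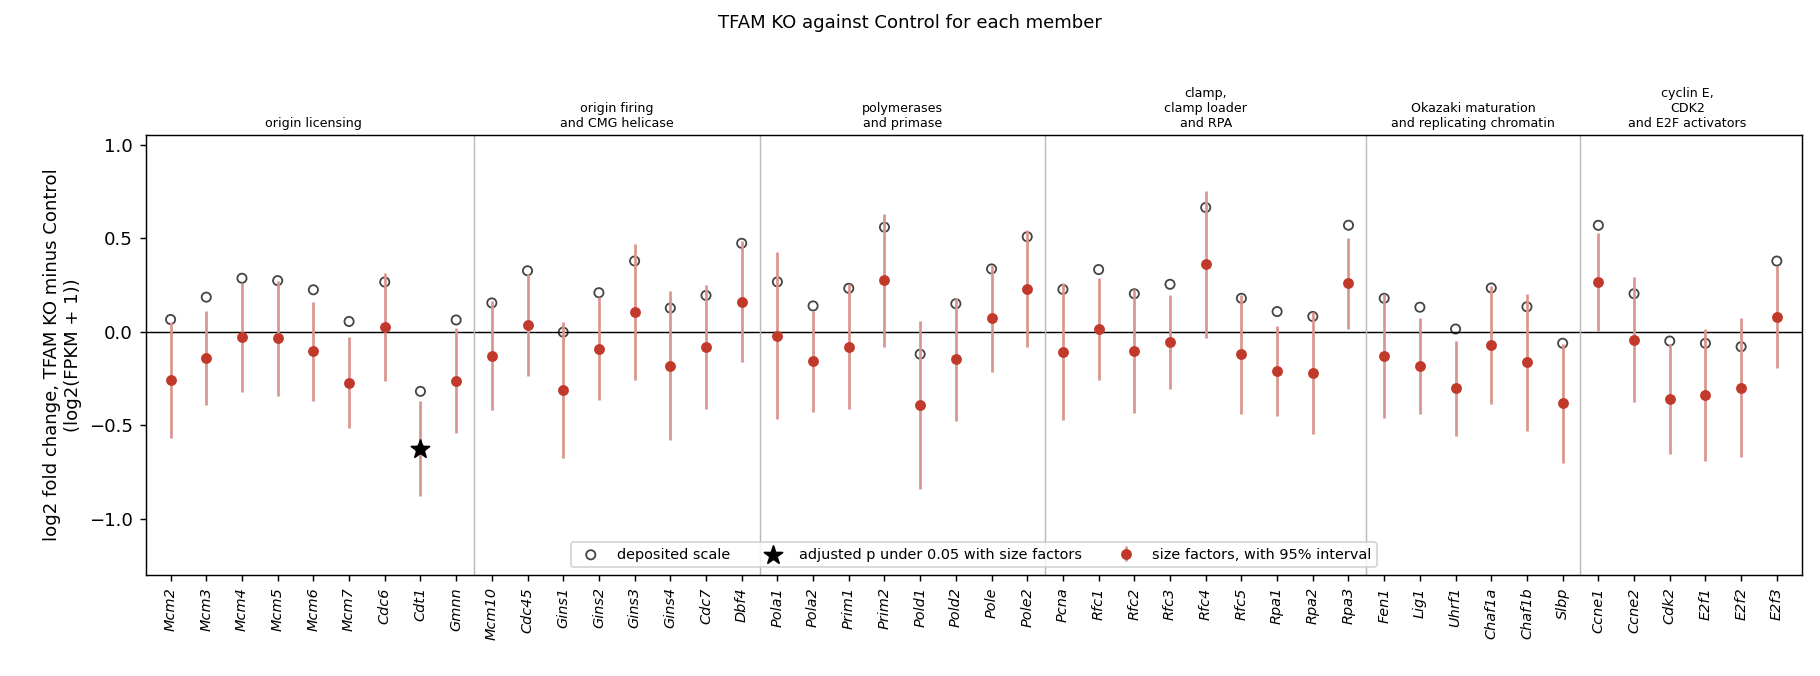
Log2 fold change of each member (TFAM KO minus Control, vertical axis), grouped by role, with size factors (red points, bars showing the 95% interval) and on the deposited scale (open circles). Cdt1, starred, was past the threshold with size factors. The open circles lie above the red points by about the 0.28 shift of all genes.

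Cdt1 was measured at 7.62, 7.42 and 6.68 FPKM in TFAM KO replicates 1, 2 and 3 and at 12.3, 11.0 and 11.9 FPKM in Control replicates 1, 2 and 3 (7.24 ± 0.498 against 11.7 ± 0.659, SD, n = 3). All 3 TFAM KO libraries lay below all 3 controls. Its log2 fold change of -0.63 had an SE of 0.11 (limma adjusted p = 0.0111), and between 207 and 472 reads stood behind each value. On the deposited scale the groups still did not overlap (8.88, 6.84 and 8.85 against 9.96, 9.48 and 11.9 FPKM), while the log2 fold change was -0.32 and did not pass (adjusted p = 0.336). No overlap in that direction was seen for 2.34% of all tested genes as deposited, and for Cdt1 alone among the members. Without Control replicate 3 the log2 fold change with size factors was -0.61 and the adjusted p 0.0642. No other gene's exons overlapped those of Cdt1 in the reference annotation.

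The promoter letters of Cdt1 show the kind of sequence that E2F proteins bind. The windows are RefSeq's on GRCm38.p6, from 250 bases before to 50 after the start of transcription, and 37 of the 46 members had one. The letters of 4 spellings of the E2F consensus were searched on both strands, TTTCCCGC, TTTGGCGC, TTTCGCGC and TTTGCCGC, whose matches on opposite strands can overlap. A match was found for 16 of the 37 members (43.2%). Among all 27025 genes with a window, 2.61% had a match, as did 2.26% of the 32851 windows, whose median content of G and C was 52.7%. Of the 10807 tested genes 7762 had a window, and 5.11% of these had a match. Their windows had a median of 61.4% G and C per gene, against 63.0% for the members. The 4 of the members lower without overlap that had a match are printed, followed by Ccne1, the cyclin E1 gene, which had none. Of the other members lower without overlap, Rpa1, Slbp and E2f1 had no match and Gmnn had no window. Matches were also found for Pole2, Gins3, E2f3 and Cdc6, whose log2 fold changes lay above 0. The printed sequences are therefore examples and do not link a match to a fall. Capitals mark the matches, and each sequence runs 5′ to 3′ on the strand of its gene.
Cdt1, chr8:122567765-122568064, plus strand: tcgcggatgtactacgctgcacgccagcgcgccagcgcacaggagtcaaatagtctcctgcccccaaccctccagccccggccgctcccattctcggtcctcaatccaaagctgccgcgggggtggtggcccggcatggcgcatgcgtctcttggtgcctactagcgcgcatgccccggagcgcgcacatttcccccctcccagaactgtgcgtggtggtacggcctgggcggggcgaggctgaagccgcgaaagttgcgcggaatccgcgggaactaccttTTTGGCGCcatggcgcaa
Mcm7, chr5:138171834-138172133, minus strand: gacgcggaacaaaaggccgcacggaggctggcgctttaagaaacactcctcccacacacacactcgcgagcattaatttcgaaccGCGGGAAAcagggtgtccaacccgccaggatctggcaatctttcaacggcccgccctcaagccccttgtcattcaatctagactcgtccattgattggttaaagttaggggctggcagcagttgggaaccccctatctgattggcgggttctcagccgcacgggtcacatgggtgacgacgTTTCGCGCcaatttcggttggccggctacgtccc
Uhrf1, chr17:56304063-56304362, plus strand: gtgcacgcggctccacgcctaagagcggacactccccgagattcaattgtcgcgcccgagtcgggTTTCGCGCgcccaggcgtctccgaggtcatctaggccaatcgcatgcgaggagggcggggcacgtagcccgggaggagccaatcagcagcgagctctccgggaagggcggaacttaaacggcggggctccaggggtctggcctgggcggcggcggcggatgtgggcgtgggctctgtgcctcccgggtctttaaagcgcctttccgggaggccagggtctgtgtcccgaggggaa
Cdk2, chr10:128705002-128705301, minus strand: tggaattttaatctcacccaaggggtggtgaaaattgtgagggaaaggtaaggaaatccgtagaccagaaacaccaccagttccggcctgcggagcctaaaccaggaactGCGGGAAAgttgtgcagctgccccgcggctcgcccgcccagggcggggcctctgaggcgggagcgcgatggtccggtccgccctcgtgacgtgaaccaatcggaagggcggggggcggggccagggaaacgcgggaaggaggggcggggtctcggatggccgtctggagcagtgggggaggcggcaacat
Ccne1, chr7:38107441-38107740, minus strand: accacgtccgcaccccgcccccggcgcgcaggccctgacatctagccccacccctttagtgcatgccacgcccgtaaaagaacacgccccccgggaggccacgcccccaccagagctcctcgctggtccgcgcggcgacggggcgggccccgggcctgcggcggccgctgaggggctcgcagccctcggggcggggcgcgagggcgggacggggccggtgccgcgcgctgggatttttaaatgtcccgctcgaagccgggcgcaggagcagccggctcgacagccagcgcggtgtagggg

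Mcm7 and Uhrf1 each had 2 windows, and the one with the most matches is printed. Distances are from the start that the printed window is built on. In Cdt1 the match began 33 bases after the start, and in Mcm7 the matches began 165 bases before and 17 bases after it. The match of Uhrf1 began 185 bases before the start and that of Cdk2 140 bases before. Members with a match had a median log2 fold change of -0.12 (range -0.63 to 0.23) and the 21 members without one -0.12 (range -0.38 to 0.36). A match describes letters only, and binding was not measured.

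The other 8 licensing genes did not pass. Of the helicase subunits, Mcm6 had a mean of 30.3 FPKM over the 6 libraries and Mcm7 of 26.1, next after Pcna among the members, while Mcm5 had 9.40 FPKM and stood between place 16 and 23 of the 46. In all, 8 of the 9 licensing genes had log2 fold changes below 0 (group median -0.14), 1 of the 8 as deposited. Mcm2 was at 21.0, 14.6 and 16.4 FPKM in TFAM KO and 21.9, 19.8 and 20.5 FPKM in Control. TFAM KO replicate 1 lay among the controls for Mcm2 and the other two lay below them, and the difference did not pass (log2 fold change -0.26, SE 0.14, adjusted p = 0.355, and 0.06 as deposited).

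Mcm7 and Gmnn did not overlap between the groups but did not pass. Mcm7 was at 24.7, 22.0 and 23.9 FPKM in TFAM KO and 28.9, 29.8 and 27.2 FPKM in Control (log2 fold change -0.27, adjusted p = 0.202, and 0.05 as deposited). Part of Mcm7 overlaps Cops6 and Ap4m1 on the opposite strand and the hosted Mir25 and Mir93, and the strand setting of the counting was not given in the sources used here. Gmnn, the inhibitor of Cdt1, was at 16.2, 20.8 and 20.3 FPKM in TFAM KO and 21.9, 24.1 and 23.0 FPKM in Control (log2 fold change -0.26, adjusted p = 0.293, and 0.06 as deposited). Cdc6, which loads the helicase with Cdt1, had the largest positive difference of this group, and it was 0.02: 2.63, 2.39 and 2.41 FPKM in TFAM KO against 2.05, 2.52 and 2.71 FPKM in Control. The Control range of Cdc6 enclosed all 3 TFAM KO libraries.

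**Figure D3:**
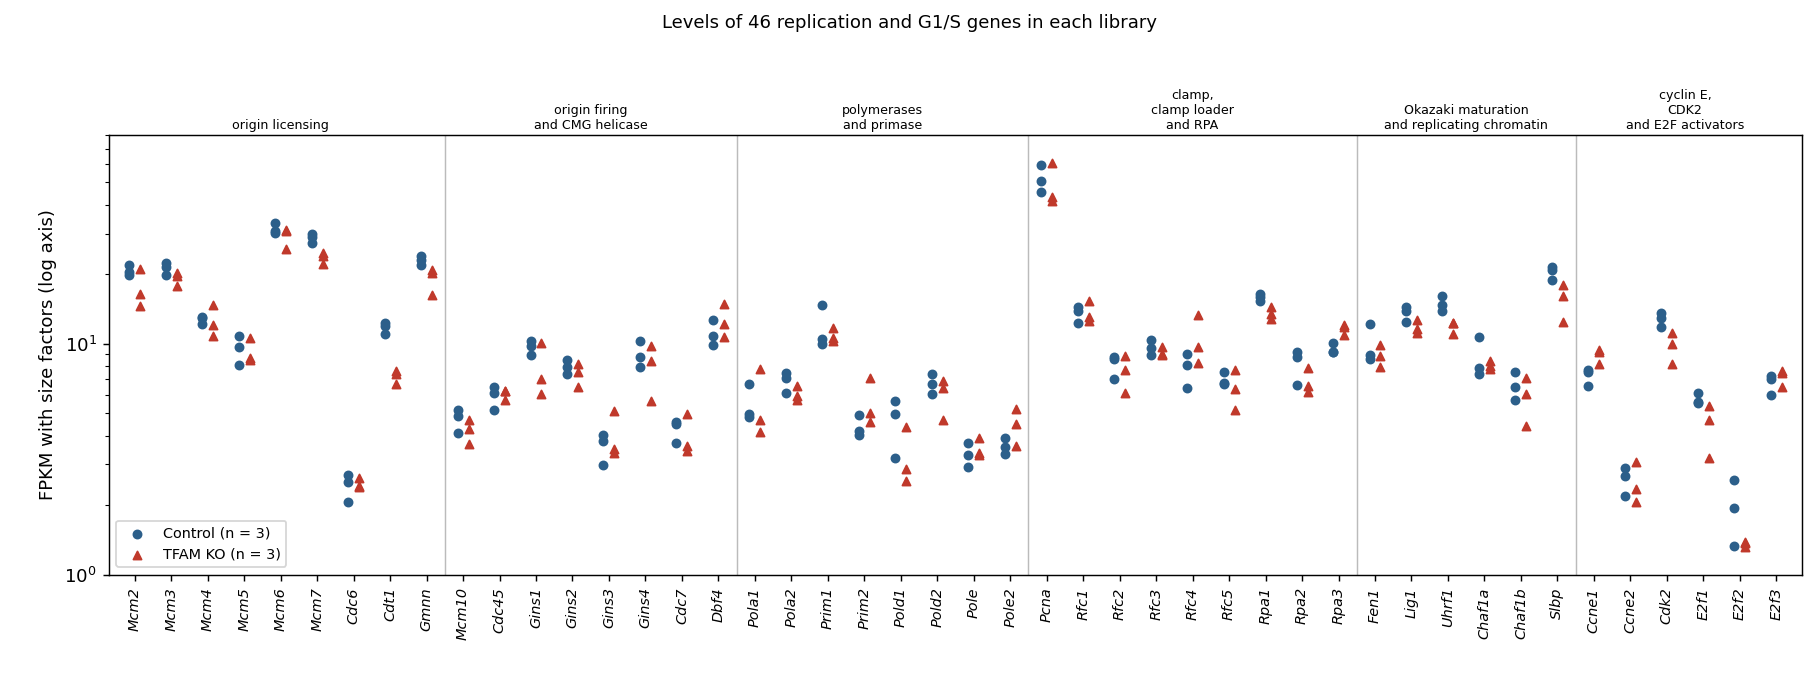
Level of each member in each library (FPKM with size factors, log axis), grouped by role; circles are the 3 Control libraries and triangles the 3 TFAM KO libraries. Pcna is highest and E2f2 lowest, and the triangles and circles of Cdt1 form separate clusters.

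None of the 8 genes of origin firing and the active helicase passed (0 higher, 0 lower; group median -0.09, and 0.20 as deposited), and none of them was free of overlap with size factors. Gins1, a GINS subunit, was at 7.05, 6.07 and 10.05 FPKM in TFAM KO and 8.95, 10.3 and 9.74 FPKM in Control (log2 fold change -0.31, adjusted p = 0.337, and close to 0 as deposited). TFAM KO replicate 3 lay among the controls and the other two below them. Dbf4, the activator of the Cdc7 kinase, was at 10.7, 12.2 and 14.8 FPKM in TFAM KO and 9.84, 12.7 and 10.8 FPKM in Control (log2 fold change 0.16, adjusted p = 0.620). Its groups overlapped with size factors and did not as deposited, where the higher direction without overlap held for 25.6% of all tested genes. Cdc45, Cdc7, Mcm10, Gins2, Gins3 and Gins4 lay between -0.18 and 0.11.

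The 8 polymerase and primase genes did not pass either (median -0.05, and 0.25 as deposited). Pold1, the catalytic subunit of polymerase delta, was at 4.34, 2.55 and 2.86 FPKM in TFAM KO and 5.63, 3.20 and 4.95 FPKM in Control. Both groups were wide and overlapped, and the log2 fold change was -0.39 (SE 0.20, adjusted p = 0.326, and -0.12 as deposited). Prim2, the large primase subunit, was at 7.14, 4.58 and 4.99 FPKM in TFAM KO and 4.93, 4.01 and 4.19 FPKM in Control (log2 fold change 0.27, adjusted p = 0.396). TFAM KO replicate 1 alone stood well above the others for Prim2, and without it the log2 fold change was 0.11. Pole and Pole2, of polymerase epsilon, lay at 0.07 and 0.23, and Pola1, Pola2, Prim1 and Pold2 between -0.16 and -0.02.

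Pcna, the sliding clamp that holds polymerases on DNA, was the most abundant member in all 6 libraries. It was at 41.5, 43.2 and 60.9 FPKM in TFAM KO and 45.6, 59.3 and 50.7 FPKM in Control, and the groups overlapped (log2 fold change -0.11, SE 0.16, adjusted p = 0.785, and 0.23 as deposited). Its reads may be shared with the named pseudogenes Pcna-ps1 and Pcna-ps2. Of the 9 genes of clamp, clamp loader and the single-strand binding complex RPA, 0 passed (median -0.10, and 0.23 as deposited). The clamp loader subunit Rfc4 was at 8.22, 9.69 and 13.4 FPKM in TFAM KO and 6.40, 8.09 and 8.98 FPKM in Control, with overlap (log2 fold change 0.36, SE 0.18, adjusted p = 0.306, and 0.66 as deposited). This was the largest positive difference among the members with all 6 libraries. Without TFAM KO replicate 3 it was 0.18 and without Control replicate 1 it was 0.23, below Prim2 at 0.33 and 0.34. The other loader subunits Rfc1, Rfc2, Rfc3 and Rfc5 lay between -0.12 and 0.01, and Rfc4, Rfc2 and Rfc5 overlap exons of genes on the opposite strand.

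The 3 RPA subunits, which form 1 complex, had differences of unlike sign with size factors, and all 3 lay above 0 as deposited. Rpa3, the smallest subunit, was at 12.0, 11.0 and 11.8 FPKM in TFAM KO and 10.1, 9.25 and 9.25 FPKM in Control, without overlap on either scale (log2 fold change 0.26, SE 0.11, adjusted p = 0.235, and 0.57 as deposited, adjusted p = 0.101). Rpa1, the largest subunit, was at 14.4, 12.8 and 13.47 FPKM in TFAM KO and 16.3, 15.4 and 15.9 FPKM in Control, lower without overlap with size factors (log2 fold change -0.21, adjusted p = 0.322, and 0.11 as deposited). Rpa2 was at 7.87, 6.57 and 6.16 FPKM in TFAM KO and 9.23, 8.72 and 6.66 FPKM in Control, and TFAM KO replicate 1 lay above Control replicate 3 (log2 fold change -0.22, adjusted p = 0.459, and 0.08 as deposited). None of these differences passed. Rpa3 rested on 63 to 167 reads a library, and a short stretch of Rpa1 overlaps Gm47300 on the same strand.

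All 6 genes of Okazaki fragment joining and of replicating chromatin lay below 0 with size factors (median -0.17), and 1 of them did as deposited. Slbp, which binds the stem-loop of histone mRNA in S phase, was at 12.5, 16.04 and 18.0 FPKM in TFAM KO and 20.8, 18.8 and 21.4 FPKM in Control (log2 fold change -0.38, SE 0.14, adjusted p = 0.171, and -0.06 as deposited). The groups did not overlap, though TFAM KO replicate 3 came close to Control replicate 2. Part of Slbp overlaps Gm10459 on the opposite strand. Uhrf1, which guides maintenance methylation behind the fork, was at 12.3, 11.0 and 12.3 FPKM in TFAM KO and 14.7, 13.9 and 16.1 FPKM in Control, also without overlap (log2 fold change -0.30, adjusted p = 0.180, and 0.01 as deposited). Chaf1a, of the histone chaperone CAF-1, differed least in this group, at 8.01, 8.43 and 7.75 FPKM in TFAM KO against 10.7, 7.36 and 7.84 FPKM in Control (log2 fold change -0.07, and 0.23 as deposited), and it overlaps Ubxn6 on the opposite strand. The nuclease Fen1, the ligase Lig1 and Chaf1b lay between -0.19 and -0.13.

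Cyclin E1 and its kinase partner lay on opposite sides of Control. Ccne1 was at 9.24, 8.15 and 9.37 FPKM in TFAM KO and 7.69, 6.56 and 7.53 FPKM in Control (log2 fold change 0.26, SE 0.12, adjusted p = 0.256, and 0.57 as deposited, adjusted p = 0.0999). The groups did not overlap with size factors, and as deposited they did. Cdk2 was at 11.2, 9.95 and 8.17 FPKM in TFAM KO and 13.6, 12.9 and 11.9 FPKM in Control, without overlap (log2 fold change -0.36, SE 0.13, adjusted p = 0.166, and -0.05 as deposited, with overlap). Neither passed, and a short stretch of Cdk2 overlaps Pmel on the opposite strand.

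None of the 3 E2F activators passed, and differences between them were not tested. E2f1 was at 4.67, 5.37 and 3.19 FPKM in TFAM KO and 5.61, 6.09 and 5.56 FPKM in Control, lower without overlap (log2 fold change -0.34, adjusted p = 0.276, and -0.06 as deposited). E2f2 was the least abundant member, at 1.31, 1.38 and 1.38 FPKM in TFAM KO and 2.58, 1.94 and 1.33 FPKM in Control, and Control replicate 3 lay with the TFAM KO libraries (log2 fold change -0.30, adjusted p = 0.371). E2f3 lay at 0.08 and the second cyclin E, Ccne2, at -0.04. The group of 6 had a median of -0.17, and 0.08 as deposited, with 0 higher and 0 lower past the threshold on both scales.

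**Figure D4:**
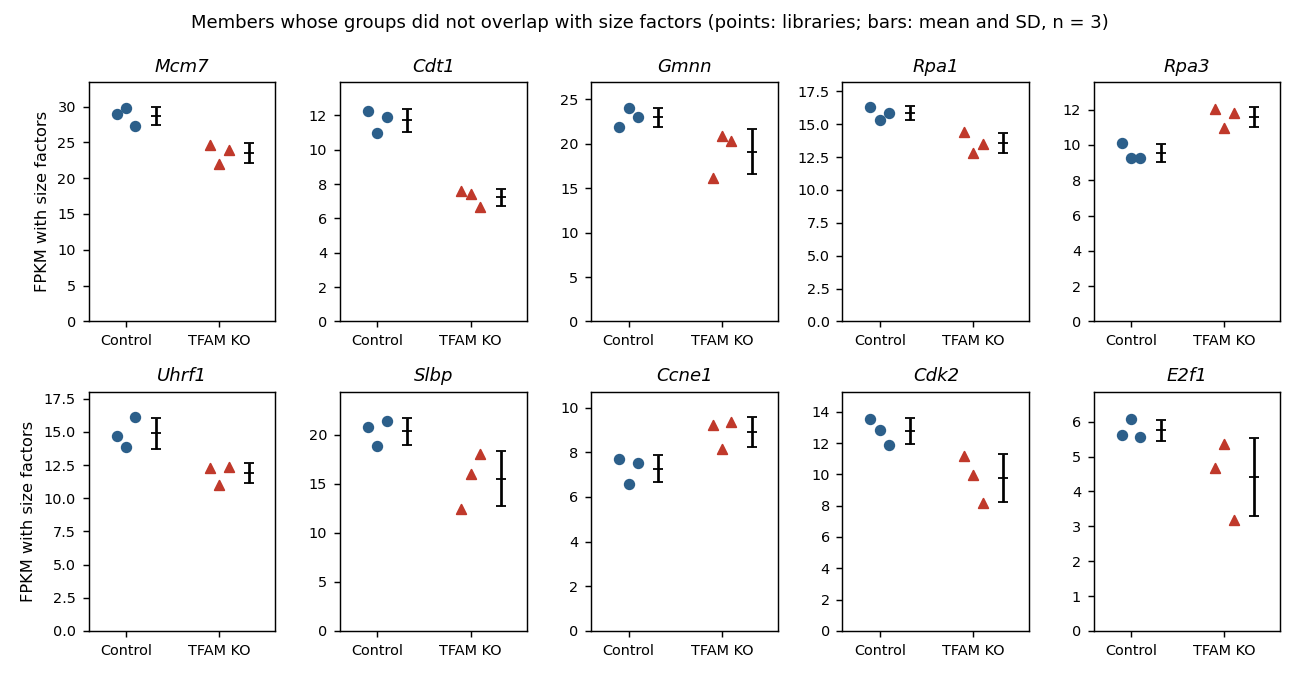
FPKM with size factors in each library for the 10 members whose groups did not overlap, with the mean and SD of each group (n = 3). In 8 of them all TFAM KO libraries lie below the controls and in Rpa3 and Ccne1 above; of the 10, Cdt1 passed the test.

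In all, 8 of the 46 members were lower and 2 higher without overlap with size factors. Among all tested genes the groups did not overlap in 12.2% with TFAM KO lower and in 11.8% with TFAM KO higher. As deposited 1 member was lower and 3 were higher without overlap (2.34% and 25.6% of all tested genes).

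Ratios of 2 members within a library do not depend on its scale, and those given here were chosen after the values were seen and are descriptions. The level of Cdt1 relative to Cdc6 was 2.90, 3.11 and 2.77 in TFAM KO and 5.98, 4.36 and 4.39 in Control. Relative to Mcm2 it was 0.363, 0.509 and 0.407 in TFAM KO and 0.560, 0.556 and 0.580 in Control. Both ratios were lower in all TFAM KO libraries. Relative to Gmnn, its inhibitor, the ratio was 0.471, 0.356 and 0.328 in TFAM KO and 0.560, 0.457 and 0.516 in Control, so that TFAM KO replicate 1 lay above Control replicate 2. For Cdt1 to Pcna it was 0.183, 0.172 and 0.110 in TFAM KO and 0.269, 0.185 and 0.234 in Control. TFAM KO replicate 1 lay just below Control replicate 2 there. Ordered by level among the 46 members, Cdt1 was at place 28, 24 and 28 in the TFAM KO libraries and at place 14, 17 and 13 in the controls. Cdt1 was picked as the member that passed, so the separation of its ratios and places adds no evidence.

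The ratio of Ccne1 to Cdk2 was 0.827, 0.819 and 1.15 in TFAM KO and 0.567, 0.510 and 0.635 in Control. All TFAM KO libraries lay above the controls, and TFAM KO replicate 3 was the highest. The ratio of Rpa3 to Rpa1 was 0.835, 0.855 and 0.877 in TFAM KO and 0.619, 0.603 and 0.583 in Control (0.856 ± 0.0210 against 0.601 ± 0.0183, SD, n = 3), with little spread in either group. Ccne1 and Rpa3 were higher, and Cdk2 and Rpa1 lower, without overlap with size factors. The separation of these ratios therefore follows from the choice of genes and adds no evidence. The ratios of Ccne1 to Ccne2 and of Rfc4 to Rfc2 overlapped between the groups. Within the helicase hexamer the shares overlapped between groups for all 6 subunits. Mcm6 made up 26.3% ± 0.419 of the summed level of the 6 subunits in TFAM KO and 25.2% ± 0.842 in Control, and Mcm5, the lowest, 8.35% ± 0.701 and 7.66% ± 1.04 (SD, n = 3).

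**Figure D5:**
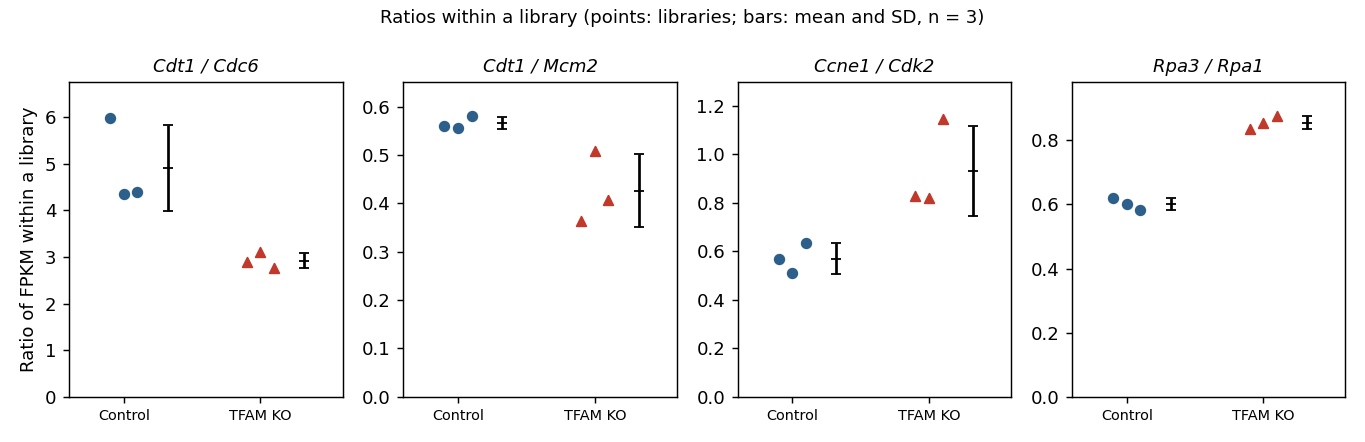
Ratio of the FPKM values of 2 members within each library, with the mean and SD of each group (n = 3). Cdt1 relative to Cdc6 and to Mcm2 lies lower in the TFAM KO libraries, and Ccne1 relative to Cdk2 and Rpa3 relative to Rpa1 higher, without overlap. For the pairs of Ccne1 and Rpa3 this follows from the choice of genes, the first higher and the second lower without overlap. Cdt1 was picked as the member that passed, so its pairs add no evidence either.

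The 34 other replication genes tested had a median of -0.03, and 0.27 as deposited. With size factors 1.99% of all tested genes were higher and 2.6% lower, and of these 34 genes 0 were higher and 1 lower. That gene was Rnaseh2c, a subunit of the nuclease that removes RNA from DNA, which fell from 32.2 ± 6.34 to 11.1 ± 2.36 FPKM (SD, n = 3). This was a log2 fold change of -1.46, with an SE of 0.18 (limma adjusted p = 0.000986), and -1.14 as deposited (adjusted p = 5.45e-05). Part of Rnaseh2c overlaps Kat5 on the opposite strand, so its reads are uncertain without a strand setting. The origin recognition subunits Orc2 to Orc6 lay between 0.04 and 0.28 and did not pass, and Orc1 fell under the filter.

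Of 25 other genes of RB, E2F and G1/S control (median -0.04, and 0.25 as deposited), 1 was higher and 1 lower. The shares of all tested genes were 1.99% and 2.6%. The CDK inhibitor Cdkn1a rose from 4.58 ± 0.692 to 15.5 ± 3.59 FPKM (log2 fold change 1.54, adjusted p = 0.000665), while Cdkn1c, another inhibitor, went down to 118 ± 15.5 from 241 ± 20.2 FPKM (log2 fold change -1.03, adjusted p = 0.00194). Both also passed as deposited. Part of Cdkn1a overlaps AC167363.2 and part of Cdkn1c overlaps Gm44732, both on the opposite strand. Cyclin A2 (Ccna2), the partner of Cdk2 in S phase, was chosen after its values were seen. It was at 25.3, 29.7 and 29.8 FPKM in TFAM KO and 38.1, 44.3 and 37.8 FPKM in Control, without overlap, and it shares bases with Exosc9 on the opposite strand. Its log2 fold change of -0.49 missed the threshold (limma adjusted p = 0.0509, limma-voom adjusted p = 0.0264, and -0.16 as deposited, adjusted p = 0.629).

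Of 20 mitosis genes, 0 were higher and 2 lower, against 1.99% and 2.6% of all tested genes. The median of the mitosis genes, -0.15, lay near that of the members, and it was 0.17 as deposited. The centromeric histone gene Cenpa fell from 27.5 ± 1.89 to 16.8 ± 2.45 FPKM (log2 fold change -0.68, adjusted p = 0.0135) and the ubiquitin-conjugating enzyme gene Ube2c from 161 ± 11.0 to 103 ± 11.2 FPKM (log2 fold change -0.64, adjusted p = 0.0167). As deposited neither passed (log2 fold changes -0.36 and -0.31), and Ube2c overlaps Tnnc2 on the opposite strand.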

How the data were processed

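Poly(A) RNA-seq of whole mouse hearts was analysed in 3 TFAM KO and 3 Control libraries. The deposited values were log2(FPKM + 1) per gene symbol. FPKM is given by the file names, and the log2 scale was read from the values. CASAVA 1.8.2, TopHat2 2.0.7, HTSeq 0.5.3 and the mm9 build are listed, with no role or order, per the submitters' processing notes. Not given in the sources used here are the annotation, the strand setting and the FPKM step.

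Whole reads were recovered from the steps of the values for all 17876 genes above 0, with 400 genes of a single transcript length in GENCODE vM21 giving the same library total. For each gene, a whole factor shared by all libraries remains unknown. FPKM values were divided by median-of-ratios size factors, and log2(FPKM + 1) was tested with limma 3.58.1 (R 4.3.3, variance trend, two-sided) on 10807 genes, those averaging 1 FPKM or more. Benjamini-Hochberg adjustment covered all of these genes, and the threshold was 0.05. The procedure was checked on simulated data with known changes. Those changes were larger than any of the members', and the same spread was assumed for all genes. The check therefore does not show how often changes of the members' size are found. The 14 alternatives were the deposited scale, an upper quartile scale, a pseudocount of 0.1, no filter, a filter at 5 FPKM, no variance trend, a replicate block, limma-voom on recovered reads and leaving out each library. No batch is named in the labels.

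Members and lists were chosen with earlier results of these data known. Named with values in every library were Pcna, Mcm2, members past the threshold and, in each of 6 role groups, the largest rise and fall. Others so named (Mcm7, Gmnn, Rpa1, Rpa3, Uhrf1, E2f1 and E2f2) were chosen after their values were seen. Ticrr and Adgre1 were not listed under those symbols, and Emr1 stood for the latter. Each replicate was a pool of 5 hearts.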

Additional observations from a re-analysis of the deposited data

How the results depend on the processing

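Of 14 alternatives, 12 called Cdt1 and 0 called another member, and Cdt1 lay below 0 in all 14. The 2 without the call were the deposited scale (0 members lower) and leaving out Control replicate 3 (0 members lower). Members lower ranged from 0 to 1 on leaving out a library. On the deposited scale, 671 genes of all tested were higher and 125 lower, against 215 and 281 with size factors, and 2 of the other pathway genes were lower, against 4. No filter gave 144 lower genes (more genes tested), and limma-voom 461. Leaving out a library gave 134 to 216 higher and 126 to 353 lower genes of all tested, and 2 to 4 lower other pathway genes.

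As deposited the median log2 fold change was 0.20 for the members, 0.18 for licensing, 0.20 for origin firing, 0.25 for polymerases, 0.23 for clamp and RPA, 0.13 for Okazaki joining and chromatin and 0.076 for cyclin E and E2F. A pseudocount of 0.1 gave -0.23 for cyclin E and E2F. Leaving out a library gave medians of -0.15 to -0.029 for the members, -0.19 to -0.08 for licensing, -0.09 to -0.003 for origin firing, -0.16 to 0.030 for polymerases, -0.12 to 0.0086 for clamp and RPA, -0.24 to -0.12 for Okazaki joining and chromatin and -0.19 to -0.12 for cyclin E and E2F. Of all 46 members, 27 lay below 0 with size factors and above 0 as deposited. Among the 14 members named by rule, the sign turned as deposited for Pcna (0.23), Mcm2 (0.064), Rpa2 (0.081) and Chaf1a (0.23), and on leaving out a library for Cdc6 (-0.061 without Control replicate 1 and -0.0067 without TFAM KO replicate 1, range -0.061 to 0.084) and Chaf1a (0.071 without Control replicate 1). The cause was not tested.

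Whether the replicate numbers pair the libraries cannot be settled with 3 libraries a group. Deviations of same-numbered libraries correlated at 0.36, 0.07 and 0.16 across genes. TFAM KO replicates 1 and 2 correlated best with the control of their own number, and TFAM KO replicate 3 with Control replicate 2 (0.25). A replicate block gave 278 higher and 421 lower genes and the same 1 member, Cdt1 (adjusted p = 0.0137).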
